A study of Ovis aries with 91 samples.

Results

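Cardiomyocytes of the left atrial appendage were compared with those of the right atrial appendage of the same animals in sheep whose atria had been driven into fibrillation. Of the 91 samples of the series, 24 belong to this comparison, chosen by their labels as cardiomyocyte samples of paced sheep. They form 12 columns of the cardiomyocyte table, since the 2 samples labelled as technical replicates of each sheep and side were merged there, and these columns make 6 left-right pairs. The pairs come from sheep D23, D24 and D27, labelled transition, and sheep D16, D19 and D20, labelled chronic. In all of these sheep a rapid pacing device sat in the right atrium and was used to start fibrillation. Transition and chronic are the submitters' names for an earlier and a later state of the disorder, and the labels give no pacing time, age, sex or breed. For reference, 12 cardiomyocyte samples (6 columns) came from 3 sheep that the condition label calls sham (S3 and S4) or control (C1), called control sheep here. Another 24 samples (12 columns) of undissociated appendage tissue came from 6 paced sheep, of which D16, D19, D24 and D27 gave both materials. Because the device lay in the right atrium, the side of the heart and the side of the device cannot be told apart within paced sheep, and the labels do not say whether control sheep carried a device.

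The appendages are blind, trabeculated pouches of the atria, and their cardiomyocytes are the contracting muscle cells that conduct the atrial impulse. Left and right atria take on different identities in the embryo through left-right patterning, and part of that difference in gene expression is known to persist in the adult. Fibrillation is a fast, irregular rhythm in which the atrial muscle remodels its ion channels, contractile apparatus and metabolism, and the left atrium is the usual seat of the sources that maintain it. The question here was which left-right differences the cardiomyocytes of fibrillating atria held, whether they differed between the states, and whether they differed from those of control sheep.

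RNA abundance was read as deposited, in log2 CPM, the reads of a gene relative to the scaled size of its library. Values compare 1 gene between samples and do not rank genes by copy number, since they are not divided by gene length. Paced cardiomyocyte libraries held 5305524 to 11118207 reads. Genes are listed by sheep Ensembl ID only. The files give no symbols for them, and none of the 13262 IDs (0) was found in the reference table. Genes are therefore given by ID, without their roles, and the cardiomyocyte label could not be checked against marker genes. In its place, 500 genes higher in whole tissue than in cardiomyocytes of the 3 control sheep (by 1.29 to 5.36 log2 units), called tissue-enriched, trace RNA that the cell isolation depletes. The right libraries of D23, D16 and D19 stood apart in this trace, at 5468, 5654 and 5214 CPM summed over the list, against 3751 to 4235 CPM in the right libraries of the other paced sheep and 3400 to 4078 CPM in all 6 left libraries. The main totals of genes that passed, the counts for this list and the calls of named genes are therefore also given without these 3 sheep. Shared signs, overlaps between lists or libraries, and correlations between sheep are given with all sheep only.

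Left and right cardiomyocytes of paced sheep differed widely, mostly by less than 2-fold. Of 12258 genes tested, 2288 (18.7%) passed, 1068 of them higher on the left (8.71%) and 1220 higher on the right (9.95%). A gene passed at an adjusted p below 0.05 in limma, with the sheep as a block and Benjamini-Hochberg adjustment over all genes. The median size of a difference among them was 0.56 log2 units and the smallest 0.20, with a median standard error of 0.12 over all genes. Differences over 2-fold were held by 66 genes of the left set and 422 of the right set. These numbers were 47 and 217 on the log2(CPM + 1) scale, and 39 and 127 without D16, D19 and D23. The count of genes that passed was 244 in a fit with no block for sheep (133 left, 111 right). Without D16 alone 1397 genes passed, and without D16, D19 and D23, which leaves 3 pairs, 406 passed (118 left, 288 right).

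**Figure D1:**
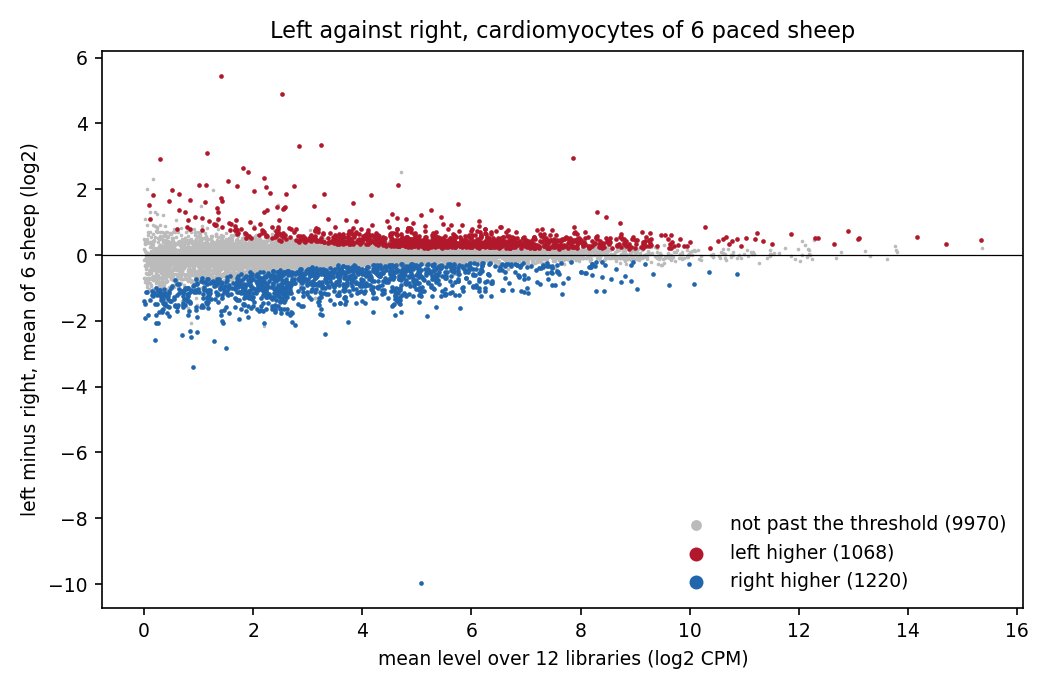
Left minus right difference of each gene (vertical, log2, mean of 6 paced sheep) against its mean level over the 12 paced cardiomyocyte libraries (horizontal, log2 CPM). Each point is a gene, with 1068 left-higher genes in red, 1220 right-higher genes in blue and genes that did not pass in grey; large differences lie mainly below the zero line and among genes of low level, and 1 gene lies near −10.

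The counts can be set beside the animals themselves, as a description of the same 6 pairs that the test used and not a separate check. The left library was higher than the right in all 6 sheep for 1236 genes (10.1%), and the right was higher in all 6 for 1269 (10.4%), together 2505 of 12258 (20.4%). Among the genes that passed as left-higher, 789 had the left higher in 6 of 6 sheep, 267 in 5 and 12 in 4. Among those that passed as right-higher the counts were 1015, 201 and 4. Across animals the sides overlapped for nearly all genes: 231 genes (1.88%) had 6 left libraries that did not overlap the 6 right ones, 147 higher on the left (1.20%) and 84 on the right (0.685%).

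ENSOARG00000007268 was the left-higher gene with the largest difference under the rule for naming genes, which asks for a mean level above the median of all genes and the same side in every sheep. Its left libraries read 8.92, 9.32 and 9.85 log2 CPM (lowest, median, highest of 6) and its right libraries 5.20, 6.23 and 8.04. The groups did not overlap, and the left was higher in each of the 6 sheep, by 1.57 in D27 at the least and 3.84 in D23 at the most. The mean difference was 2.96 ± 0.23 log2 units (SE, n = 6 sheep, limma adjusted p = 1.06e-05), or 7.79-fold.

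ENSOARG00000012705 came next. Its left libraries read 4.83, 5.55 and 6.68 log2 CPM and its right libraries 2.54, 3.75 and 4.27, again without overlap. The difference was smallest in the chronic sheep D16 (0.92) and largest in the transition sheep D24 (2.96), with a mean of 2.12 ± 0.22 (SE, limma adjusted p = 5.88e-05). Below the median level, and therefore outside the naming rule and chosen after its values were seen, ENSOARG00000007850 had the smallest p of the left-higher genes. It gave 154 to 453 reads in each left library and 2 to 19 reads in each right one, or 4.35 to 5.56 against −1.43 to 1.35 log2 CPM. Its difference was 4.90 ± 0.20 (SE, limma adjusted p = 4.84e-08), a size that rests on few right reads.

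On the right side ENSOARG00000019859 had the largest difference of all genes tested. It gave 4138 to 10922 reads in the 6 right libraries and 3, 3, 7, 9, 17 and 29 reads in the left libraries of D20, D27, D24, D19, D16 and D23. In log2 CPM the right libraries read 9.53, 10.07 and 10.55 (lowest, median, highest) and the left libraries −1.11, 0.029 and 1.64. The left level was thus close to the floor in all 6 sheep, while the right level varied little, with an SD of 0.37. The difference of −9.95 ± 0.39 (SE, limma adjusted p = 4.84e-08) depends on those few left reads.

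ENSOARG00000018367 was right-higher by a smaller and even margin. Its left libraries read 3.98, 4.28 and 4.69 log2 CPM and its right libraries 5.80, 6.03 and 6.72. The groups did not overlap, and the difference lay between −2.71 (D27) and −1.46 (D19), with a mean of −1.86 ± 0.14 (SE, limma adjusted p = 1.02e-05). In all, 629 left-higher and 432 right-higher genes met the naming rule. The calls of the 4 genes named under it and of ENSOARG00000007850 were kept under every alternative processing of the 6-pair comparison, including each sheep left out in turn and the 3 sheep left out together.

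**Figure D2:**
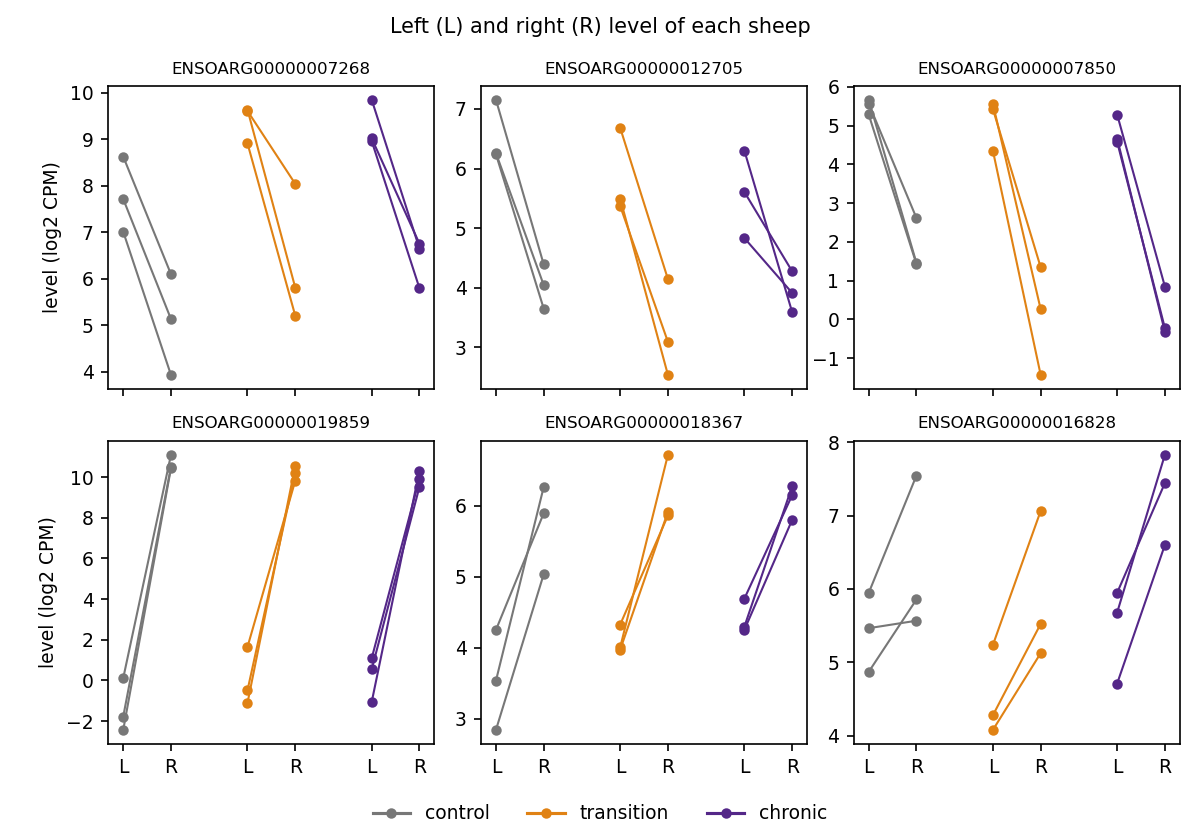
Level (log2 CPM) of 6 genes in the left (L) and right (R) cardiomyocytes of each sheep, with a line joining the sides of 1 animal; vertical scales differ between panels. Control sheep are grey, transition sheep orange and chronic sheep purple, 3 of each. In the upper row every line falls from left to right and in the lower row every line climbs, control sheep included; the panel of ENSOARG00000019859 spans from −2.43 to 11.1 log2 CPM.

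The size of the left-right difference varied from sheep to sheep. The median absolute difference over all genes was 0.28 in D23, 0.22 in D24, 0.21 in D27, 0.30 in D16, 0.33 in D19 and 0.23 log2 units in D20. It was 0.18, 0.20 and 0.25 in the control sheep C1, S3 and S4. Each paced sheep had more genes over 2-fold higher on the right than on the left. The numbers (left, then right) were 217 and 805 in D23, 259 and 407 in D24, 256 and 588 in D27, 247 and 944 in D16, 454 and 964 in D19, and 212 and 535 in D20. The right excess was smallest in D24 and widest in D16. Control sheep C1 had the reverse, 331 and 192, while S3 had 245 and 309 and S4 346 and 557. Across 12258 genes, the differences of any pair of paced sheep correlated at a Pearson's r of 0.24 to 0.57 (15 pairs of sheep, median 0.41). Between a paced and a control sheep r was 0.062 to 0.45 (18 pairs, median 0.34). These are descriptions across genes, which are not independent and share the libraries of each sheep.

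The trace of tissue-enriched genes was higher on the right in each paced sheep, though the adjusted test could not have passed with this few pairs. Summed over the list it was 3400, 3811 and 4078 CPM (lowest, median, highest) in left and 3751, 4724 and 5654 CPM in right paced libraries. An exact two-sided sign-flip permutation test gave p = 0.03125, the smallest that 6 pairs allow, and 0.146 after adjustment over the 14 such tests made (7 library measures, in paced and in control sheep). In control sheep the right sum was higher in 2 of 3 (3843, 4155 and 4518 CPM on the right for S3, C1 and S4, against 3683, 4940 and 4243 on the left). Of the 491 list members tested in paced sheep, 5 were higher on the left, 89 on the right and 397 did not pass, or 19.1% called against 18.7% of all genes. Their median difference was −0.19 log2 units, beside 0.027 over all genes. Without D16, D19 and D23 the list counted 3 left and 14 right, with a median of −0.088. In bulk RNA, fewer cells of a type and less RNA per cell cannot be told apart. Leaving the list out of the count kept 2194 of 11767 genes, with 1063 left-higher and 1131 right-higher.

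**Figure D3:**
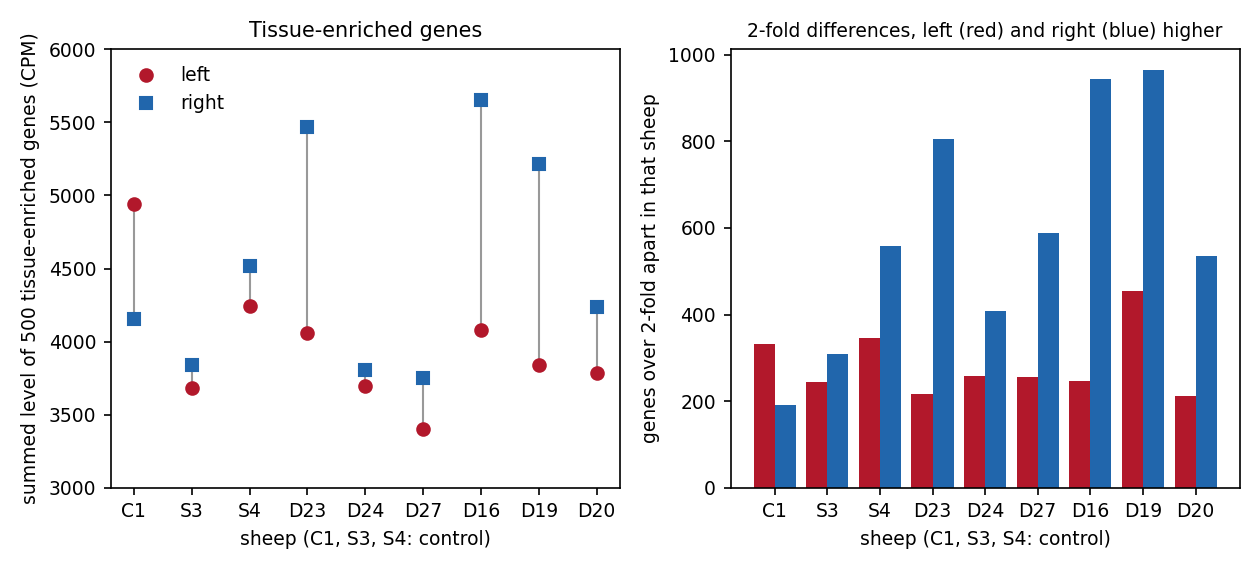
Left panel, summed level of the 500 tissue-enriched genes (CPM, on an axis that does not start at 0) in left (red circles) and right (blue squares) cardiomyocytes of each sheep. Right panel, bars with the number of genes over 2-fold higher on the left (red) or right (blue) in that sheep. D23, D16 and D19 hold the highest right sums, 5214 to 5654 CPM, and the most right-higher genes, 805 to 964; among all 9 sheep, C1 is the exception with the left ahead in both panels.

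Genes at the other end of that ranking, the 500 most enriched in cardiomyocytes over whole tissue of control sheep, also leaned to the right. Their whole tissue minus cardiomyocyte difference ran from −9.69 to −0.89 log2 units. The list is defined by level alone and is not a set of known cardiomyocyte genes. Why its members read higher in the isolated cells was not tested. Of these, 50 were higher on the left, 170 on the right and 280 did not pass, 44.0% called against 18.7% of all genes, with a median of −0.16 beside 0.027 over all genes. The lean to the right was there for both lists under every scaling tried. For cardiomyocyte-enriched genes it was also there without D16, D19 and D23, at 8 left and 53 right of 500 and a median of −0.17, where 118 left and 288 right of all 12258 genes passed. Under library totals the list counted 30 left and 202 right, where all genes split 489 and 1818. Their summed level did not follow one side, being higher on the left in 4 of 6 paced sheep (exact two-sided p = 0.594, 0.756 adjusted). Both lists were chosen from control libraries, which the paced comparison does not use.

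The balance between the sides changed with the level of the gene. In the lowest quartile of genes (0.0024 to 2.35 log2 CPM) 72 genes were higher on the left and 353 on the right. The counts were 142 and 353 in the second quartile, 278 and 300 in the third, and 576 and 214 in the highest (5.36 to 15.3 log2 CPM). The share that passed went from 13.9% to 25.8%, as the reads behind a gene rose from a median of 22.1 to 711 per library. Library measures also leaned to one side in most of the same animals, and none could have passed after adjustment with this few pairs. The 10 highest genes of a library held 19.2% to 23.5% of left reads and 17.5% to 21.6% of right reads, more on the left in 6 of 6 sheep (exact permutation p = 0.03125, 0.146 adjusted). Left libraries were deeper in 5 of 6 sheep (7164763 to 10738102 against 5305524 to 11118207 reads, exact permutation p = 0.156, 0.389 adjusted). The authors' scaling factors were higher on the right in 5 of 6 (0.976 to 1.09 against 0.908 to 0.999, exact permutation p = 0.0625, 0.219 adjusted).

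The balance depended on the scaling. When library totals replaced the authors' factors, the median of all genes moved from 0.027 to −0.093, and the calls split into 489 left-higher and 1818 right-higher genes. The highest quartile then turned to 276 left and 470 right. It kept a left excess under median-of-ratios rescaling (482 and 246) and quantile normalisation (414 and 306). With all libraries thinned to 5305524 reads, the size of the smallest, the quartile held 546 and 212. Without D16, D19 and D23 it held 59 left and 84 right genes, without a left excess. The part of the tissue trace and of the 10 highest genes in this pattern was not tested.

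**Figure D4:**
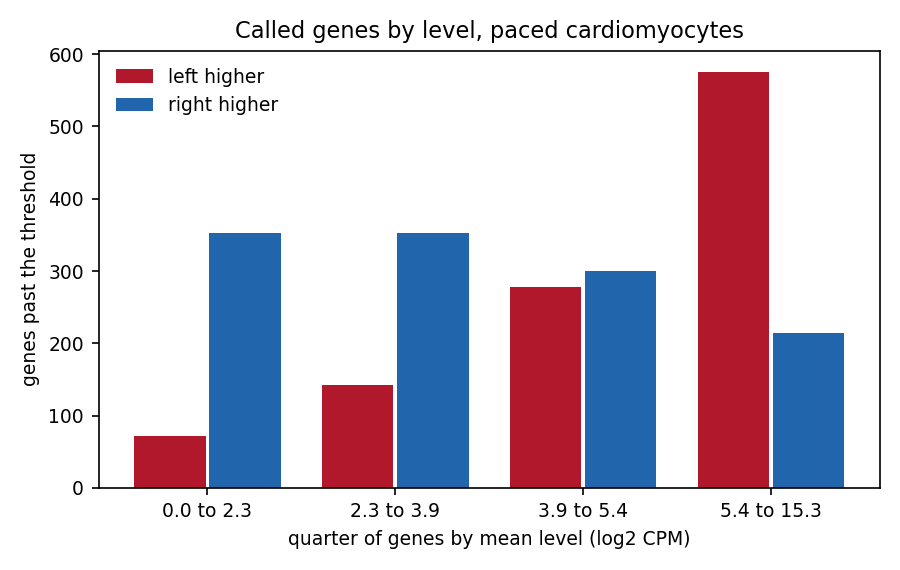
Number of genes that passed as left-higher (red) or right-higher (blue) in paced cardiomyocytes, by quartile of all 12258 genes ranked on mean level (log2 CPM, horizontal). Left-higher genes grow from 72 to 576 and right-higher genes shrink from 353 to 214 from the lowest quartile to the highest, under the authors' scaling; with library totals the highest quartile turns to 276 left and 470 right.

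The states were then taken apart, to ask whether the left-right difference was already present in transition sheep. In the 3 transition pairs 602 genes passed (4.91%), 144 higher on the left (1.17%) and 458 on the right (3.74%). In the 3 chronic pairs 1629 passed (13.3%), 758 on the left (6.18%) and 871 on the right (7.11%), or 278 and 1550 with library totals. Each state's count leaned on single sheep. Transition calls numbered 234 without D23 and 246 without D27, chronic calls 513 without D16 and 447 without D19, and with the sheep as a random effect the transition count was 220.

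The 2 lists overlapped. Of the 602 transition genes, 598 (99.3%) had the same sign in the chronic sheep and 474 (78.7%) passed there in the same direction, which is 29.1% of the chronic list. Of the 1629 chronic genes, 1558 (95.6%) had the same sign in transition sheep. Over all genes tested the sign was shared by 70.2%. The sheep of the states are different animals, while the fit pools the spread over both. No gene passed in both states in opposite directions.

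The test of the difference itself found no gene. For chronic minus transition, 0 of 12258 genes (0%) passed in limma, the smallest adjusted p was 0.206, 674 genes had an unadjusted p under 0.05, and voom on the recovered reads called 1. The larger chronic count is therefore not shown to be a larger left-right difference. With 3 pairs a state, the median standard error of this contrast was 0.24 log2 units. Without D16, D19 and D23, 38 genes passed, a fit in which the chronic state is D20 alone and the spread comes from the pair of transition sheep D24 and D27.

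The genes named in the transition pairs were the same 4 as in all 6 pairs. ENSOARG00000007268 read 9.64, 8.92 and 9.61 log2 CPM on the left and 5.81, 5.20 and 8.04 on the right of D23, D24 and D27, a difference of 3.04 ± 0.34 (SE, limma adjusted p = 0.000587). D27 had the highest right level of these. ENSOARG00000012705 differed by 2.59 ± 0.26, ENSOARG00000019859 by −10.18 ± 0.56 and ENSOARG00000018367 by −2.06 ± 0.19. The transition call of ENSOARG00000007268 was lost with robust fitting (limma adjusted p = 0.0681) and in a fit with no block (0.124), that of ENSOARG00000012705 in the fit with no block (0.108).

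In the chronic pairs ENSOARG00000007268 (2.88 ± 0.34) and ENSOARG00000019859 (−9.73 ± 0.56) were named again, beside ENSOARG00000019153 and ENSOARG00000016828. ENSOARG00000019153 read 6.93, 6.26 and 6.41 on the left and 5.10, 4.56 and 4.32 log2 CPM on the right of D16, D19 and D20. The left was higher in all 3 by 1.70 to 2.09, with a mean of 1.87 ± 0.11 (SE, limma adjusted p = 8.63e-06). In transition sheep the same gene differed by 1.24 ± 0.11, and the difference between the states did not pass (0.63 ± 0.16, limma adjusted p = 0.825). ENSOARG00000016828 read 5.68, 5.95 and 4.71 on the left and 7.83, 7.44 and 6.60 on the right, a difference of −1.85 ± 0.16 in chronic sheep beside −1.37 ± 0.16 in transition sheep. All 3 right libraries lay above all 3 left libraries in the chronic state. In a fit with no block the chronic calls of ENSOARG00000007268 (limma adjusted p = 0.0594) and ENSOARG00000016828 (0.141) were lost, the first also without D16, D19 and D23 (2.27, limma adjusted p = 0.110).

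Control sheep served as the reference for how much of this left-right difference is present without pacing. In their 3 pairs 301 of 12279 genes passed (2.45%), 156 higher on the left (1.27%) and 145 on the right (1.18%). With 3 animals against 6 in the paced comparison, the counts are not a measure of how far the sides differ. Of the genes that passed in paced sheep, 2284 were tested in both, and 1913 of these (83.8%) had the same sign in control sheep, against 59.2% of the 9904 that did not pass. By side, 854 of 1067 left-higher and 1059 of 1217 right-higher genes kept their sign. Passing in the same direction in both was met by 214 genes, 9.37% of the paced list and 71.3% of the 300 control genes, while 6 passed in opposite directions.

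The control animals were not alike in this. For the 2288 genes that passed in paced sheep, the sign was shared by 55.0% in C1, 78.9% in S3 and 88.5% in S4. C1 alone carries the condition label control, while S3 and S4 carry sham, though the column names of C1 also say sham. Whether this bears on the spread was not tested. All 3 control sheep had the left higher for 487 of the 1068 left-higher genes (45.6%) and the right higher for 545 of the 1220 right-higher genes (44.7%). Among genes that did not pass in paced sheep, all 3 controls had the left higher for 19.6% and the right higher for 17.2%.

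The leading side genes of paced sheep held the same side in controls. ENSOARG00000007268 differed by 3.09, 2.59 and 2.53 log2 units in C1, S3 and S4, ENSOARG00000012705 by 2.21, 2.59 and 2.76, and ENSOARG00000007850 by 3.86, 4.21 and 2.95. ENSOARG00000018367 differed by −2.73, −1.64 and −2.19. ENSOARG00000019859 gave 2, 10 and 2 reads in the left libraries of C1, S3 and S4 and 10634, 20410 and 10869 reads in the right ones. ENSOARG00000016828 was less even, at −0.10 in C1, −0.99 in S3 and −1.60 in S4, and did not pass in controls (limma adjusted p = 0.0550). None of these 6 genes passed for the paced minus control difference, where their limma adjusted p values lay between 0.195 and 0.871. ENSOARG00000019153, named in the chronic pairs, was also left-higher in controls, by 1.37, 1.45 and 1.77 in C1, S3 and S4. Its paced minus control difference was 0.027 ± 0.14 (SE, limma adjusted p = 0.960).

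A small set of genes did differ between paced and control sheep in the left-right difference itself. Of 12279 genes, 15 passed (0.122%), 11 with a more left-sided difference in paced sheep (0.0896%) and 4 with a more right-sided one (0.0326%). The 11 were all higher on the right in each of the 3 control sheep. The sign of the mean difference was opposite in paced and control sheep for 10 of the 11 and 3 of the 4. All paced sheep lay on one side and all control sheep on the other for 5 of the 11 and 2 of the 4. These signs describe the same values by which the test picked the 15 genes and are not a separate check. How many of all genes show such signs was not counted. Sizes ran from 0.75 to 1.53 log2 units in the first set and from 0.86 to 2.31 in the second.

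These calls rest on 3 control sheep and are sensitive to each. Without S4 limma called 0 genes (1473 at an unadjusted p under 0.05, smallest adjusted p = 0.0584), without S3 or C1 5 each, without D27 4, without D24 6 and without D20 91. With the sheep as a random effect 3 genes passed, with library totals 3 more left-sided and 3 more right-sided, and with voom 32 in all. The 5 genes described next all lost their calls without S4, without the block and with the random effect. Except for ENSOARG00000016825, they also lost them without D16, D19 and D23. ENSOARG00000017557, ENSOARG00000007984 and ENSOARG00000019122 lost them further without S3, D24 or D27, the first also with library totals or median-of-ratios rescaling, the others also without C1, and the last without D16.

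ENSOARG00000016825 moved from right-higher in controls to left-higher in paced sheep. The left minus right difference was −0.35, −0.56 and −1.03 in C1, S3 and S4. It was 0.57, 0.25 and 0.88 in the transition sheep D23, D24 and D27, and 1.03, 1.04 and 1.52 in the chronic sheep D16, D19 and D20. No paced sheep overlapped a control, which the naming rule asks for. The mean left level was 3.42 ± 0.54 log2 CPM (SD, n = 3) in controls and 5.58 ± 0.62 (SD, n = 6) in paced sheep, and the mean right level 4.07 ± 0.22 and 4.70 ± 0.82. The difference of differences was 1.53 ± 0.19 (SE, limma adjusted p = 0.00772).

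ENSOARG00000017557 had differences of −0.36, −1.15 and −1.27 in the controls in the same order. The transition sheep lay near 0, at −0.0034 in D23, 0.30 in D24 and −0.10 in D27, and the chronic sheep at 0.77, 1.75 and 0.80. Left levels averaged 3.17 ± 0.56 in controls, 4.83 ± 0.30 in transition and 5.83 ± 0.13 log2 CPM in chronic sheep (SD, n = 3 each), while the right averages were 4.09, 4.76 and 4.73. The paced minus control difference was 1.51 ± 0.24 (SE, limma adjusted p = 0.0346), and the difference between the paced states did not pass (1.04 ± 0.25, limma adjusted p = 0.825).

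In the other direction ENSOARG00000007984 was slightly higher on the left in all 3 controls, by 0.71, 0.21 and 0.32, and lower on the left in all 6 paced sheep, by 0.32 to 1.01. Its level was lower in paced sheep on both sides, at 5.70 ± 0.26 (SD, n = 3) against 3.0 ± 0.57 log2 CPM (SD, n = 6) on the left and 5.29 ± 0.018 against 3.68 ± 0.42 on the right. No paced library reached the lowest control library of its side. The paced minus control difference was −1.09 ± 0.16 (SE, limma adjusted p = 0.0240).

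ENSOARG00000019122 differed by 0.28, −0.14 and 0.16 in controls and by −1.18 to −0.64 in paced sheep, a paced minus control difference of −0.97 ± 0.16 (SE, limma adjusted p = 0.0346). Its left level averaged 4.58 in controls and 3.51 log2 CPM in paced sheep, and its right level 4.48 and 4.38. ENSOARG00000000465 lies below the median level and was chosen after its values were seen, as it had the largest change of side. It was higher on the left in C1, S3 and S4 by 1.21, 0.82 and 1.54 and lower on the left in every paced sheep, at −1.28, −1.81, −1.26, −0.91, −1.26 and −0.22 in D23, D24, D27, D16, D19 and D20. Its left libraries gave 111 to 206 reads in controls and 13 to 59 in paced sheep, and the difference of differences was −2.31 ± 0.28 (SE, limma adjusted p = 0.00772). On the right its mean level was 2.82 in controls and 2.76 log2 CPM in paced sheep.

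**Figure D5:**
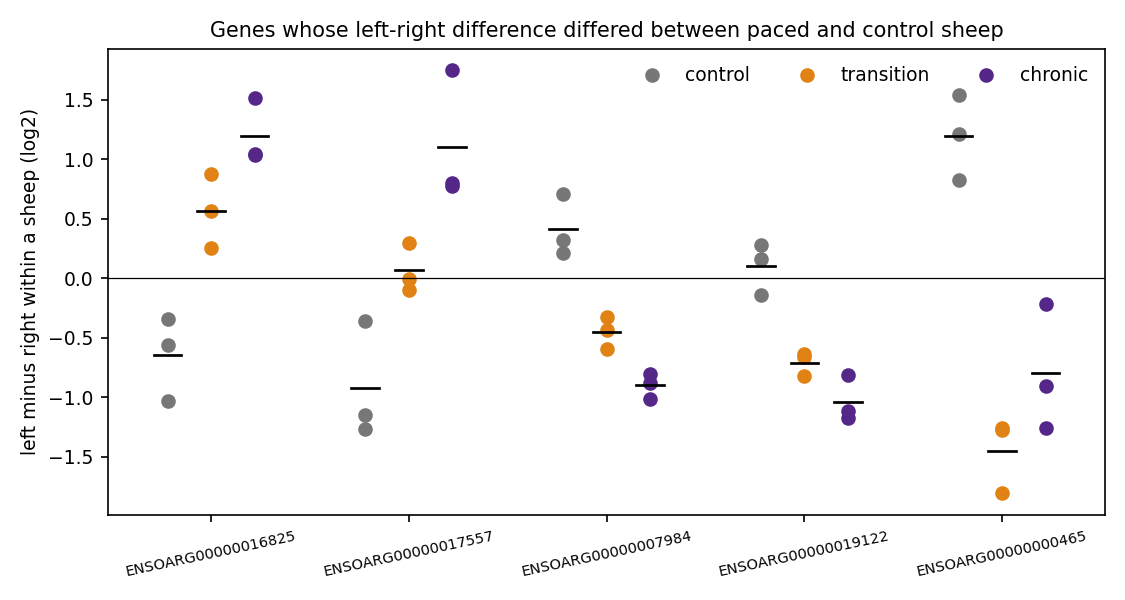
Left minus right difference within each sheep (log2, vertical) for 5 genes that passed for the paced minus control difference. Points are sheep (grey control, orange transition, purple chronic, 3 each) and short black lines are means; the line at 0 marks equal sides. For each gene the paced points lie apart from the control points, above them for the first pair of genes and below them for the other 3. All but ENSOARG00000000465 were named by a rule that asks for this, and that gene was chosen after its values were seen.

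Whole tissue of paced sheep gave the same direction for most genes, though with fewer calls. There 274 of 12351 genes passed (2.22%), 112 higher on the left (0.907%) and 162 on the right (1.31%). Of the 2188 genes that passed in paced cardiomyocytes and were tested in tissue, 1882 (86.0%) had the same sign there, against 59.3% of those that did not pass in cardiomyocytes. Passing in both in the same direction was met by 205 genes, 9.37% of the cardiomyocyte list and 79.8% of the 257 tissue genes, and 2 passed in opposite directions. The materials share 4 of their 6 sheep and were normalised apart, so these counts are not independent of each other.

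Of the 12 genes named above, 5 passed in paced whole tissue and 7 did not. In paced whole tissue ENSOARG00000019859 differed by −9.94 ± 0.50, ENSOARG00000018367 by −2.65 ± 0.29, ENSOARG00000007850 by 4.08 ± 0.24, ENSOARG00000019153 by 1.46 ± 0.20 and ENSOARG00000016828 by −1.51 ± 0.19 (SE), and all 5 passed. ENSOARG00000007268 had a mean of 3.20 ± 0.72 but did not pass (limma adjusted p = 0.0530), as its differences ran from −0.19 in D27 to 6.64 in D15. ENSOARG00000012705, which was higher on the left in the cardiomyocytes of every sheep, gave 0.53 ± 0.29 in tissue (limma adjusted p = 0.442), with D27 and D16 at −0.62 and −0.58. The 5 genes named for the paced minus control difference did not pass for left against right in paced tissue. Limma adjusted p values were 0.106 for ENSOARG00000016825, 0.815 for ENSOARG00000017557, 0.865 for ENSOARG00000007984, 0.520 for ENSOARG00000019122 and 0.862 for ENSOARG00000000465. The paced minus control difference itself was not fitted in tissue, so these values do not test it there. For each of these 5 genes the left minus right differences of control and paced tissue overlapped, unlike in cardiomyocytes. For ENSOARG00000016825 they were −0.31, 1.01 and −0.91 in C1, S3 and S4 and 0.051 to 1.44 in paced tissue. The left-higher genes that the rule named in tissue, ENSOARG00000017490 (1.51 ± 0.15 there) and ENSOARG00000007512 (1.49 ± 0.31), differed by 0.57 ± 0.18 and 0.85 ± 0.14 in paced cardiomyocytes (SE), and both passed there. The difference between the materials was not tested.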

How the data were processed

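RNA libraries were made with the NEBNext Ultra kit, per the labels' protocols. Among the tools, bcl2fastq, cutadapt, RSEM and limma are listed in the submitters' processing notes, without roles. Not given in the sources used here are the aligner, build, annotation and use of strand, so overlapping and near-identical genes cannot be told apart. The authors deposited log2 CPM values, 1 column per sheep and side. Each of the 238716 cardiomyocyte values corresponded to a whole read number (within 0.05 reads), offset by 0.5 and divided by a scaled library size before the log, so reads were recovered. No column was left without a sample (0).

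The deposited log2 values were fitted with limma 3.58.1 in R 4.3.3 (mean-variance trend, no further pseudocount), with the sheep as a fixed block, over genes with a mean of at least 0 log2 CPM. The 6 pairs left 5 residual degrees of freedom, side within state 4, and the fit with controls 6. Benjamini-Hochberg adjustment ran over all genes of a fit, with a threshold of 0.05. The labels name the sheep, and left and right samples of a sheep deviated together (consensus correlation 0.474). No pair of libraries of a group agreed within sampling noise (chi-square per degree of freedom 11.5 or more). Count models were not run, since the test was chosen by the log scale of the deposited values, although the recovered reads would have allowed them. The scripts were tested on simulated data.

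Per comparison, the 2 genes with the largest differences in each direction were named, among genes that passed, lay above the median level and had the same sign in every pair (for a difference of differences, no overlap of sheep). Lists of gene symbols could not be used. The members, lists and comparisons were chosen with earlier results of these data known. Alternatives covered the block, each sheep left out, scaling, filter, pseudocount, weights, voom, robust fitting and the use of all 18 columns. Thinning to equal depth and leaving out D16, D19 and D23 together were added after the data were seen.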

Additional observations from a re-analysis of the deposited data

Results flagged for a closer look

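The left-right difference of 15 genes differed between paced and control sheep by a direct test of that difference (limma, paced minus control). The difference of differences was 1.53 log2 units for ENSOARG00000016825 and 1.51 for ENSOARG00000017557, both more left-sided in paced sheep. It was −1.09 for ENSOARG00000007984, −0.97 for ENSOARG00000019122 and −2.31 for ENSOARG00000000465, all 3 more right-sided. All 5 lost their call without control sheep S4, without the block for sheep and with the sheep as a random effect, at sizes of 1.33, 1.34, −1.13, −0.94 and −2.14 without S4. Among 44 sets of 6 values (named genes and library measures of the paced sheep) 0 had a value far from the other 5; chance would mark about 1 set in 20.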

How the results depend on the processing

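With no replicate block 244 genes passed in paced pairs (133 left, 111 right), 9 in transition, 43 in chronic and 1 for paced minus control, instead of 2288, 602, 1629 and 15. With the sheep as a random effect 220 passed in transition and 3 for paced minus control. Leaving out 1 sheep at a time gave 1397 to 2353 genes in paced pairs, 234 to 759 in transition, 447 to 1862 in chronic, 0 to 4 for chronic minus transition and 0 to 91 for paced minus control. Without D16, D19 and D23, where D20 is the lone chronic sheep and is assumed to vary like the others, the counts were 406, 109 in chronic, 38 for chronic minus transition and 9 for paced minus control, and 542 in transition, where they split 221 left and 321 right. Chronic minus transition gave 1 gene with voom and 1 with robust fitting. Paced minus control gave 6 with library totals, 9 with median-of-ratios rescaling, 27 with log2(CPM + 1), 84 with sample quality weights, 32 with voom, 23 with robust fitting and 27 with thinned reads. A filter at a mean of 2 log2 CPM tested fewer genes and split the paced calls into 1032 left and 944 right. The total of each of the 5 comparisons stayed within 1.5 times under the other alternatives. Of 370 values of named genes under an alternative, 331 kept their call, 39 lost it and 0 changed sign. Most of the lost calls were for the paced minus control difference. Some alternatives, such as the fit with no block and robust fitting, leave the size of a difference unchanged and could not turn a sign. Thinned reads shared 1942 of the 2288 paced calls (84.9%). In the lowest quartile of genes, at a median of 22.1 reads, 13.9% passed. The causes of these shifts were not tested.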
